A study of Mus musculus with 10 samples.

Results

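The genes described here encode 10 secreted proteins of the extracellular matrix that are not collagens: Mfap5, Fbn1, Eln, Abi3bp, Aspn, Ogn, Dcn, Lum, Tnc and Postn. They were chosen by name, and each was read by every probe set (a group of short array oligonucleotides) that the platform table assigns to that gene alone. Several were picked because their signal was low in cystic duct, so cystic duct against gallbladder is a description for all of them, with no test. Of the 10 genes, 9 had at least 1 such probe set, out of 18193 genes on the array, and they gave 16 of 34945 single-gene probe sets. Fbn1 had none and has no value here. All 16 probe sets passed the filter on dim signals, a mean log2 signal of at least 4.47 over the samples.

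RNA from embryonic mice, 15 days post coitum (dpc), was measured on Affymetrix arrays in 5 groups, each of 2 samples that the series design calls biological replicates. The groups were wild type cystic duct of ICR, Sox17+/- gallbladder of ICR, wild type gallbladder of ICR, Sox17+/- gallbladder of C57BL/6 (B6) and wild type gallbladder of B6. Sox17 is a transcription factor gene active in endoderm, ICR is an outbred stock and B6 an inbred strain, and the cystic duct is the tube that leads from the gallbladder to the common bile duct. The labels do not describe the Sox17 allele, do not give the embryos or litters behind a sample, and do not say whether embryos were pooled. P-values therefore measure only the spread between these samples, and with 2 arrays a group their number limits the precision. Every signal below is a quantile-normalised log2 value.

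These matrix proteins are made mainly by fibroblasts and smooth muscle cells of a hollow organ's wall. Fibrillin (Fbn1) forms the backbone of microfibrils, on which elastin (Eln) is laid down to make elastic fibres, and Mfap5 binds these microfibrils. Asporin (Aspn), osteoglycin (Ogn), decorin (Dcn) and lumican (Lum) are small leucine-rich proteins and proteoglycans that bind collagen fibrils, and decorin and asporin also bind TGF-beta. Tenascin-C (Tnc) and periostin (Postn) are glycoproteins that change how cells adhere to the matrix, and Abi3bp is a secreted matrix protein.

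Aspn and Ogn lie in the same chromosome neighbourhood, and their cystic duct signals were among the low ones, so the sequences before their starts are shown with that of Postn, whose signal differed less between the tissues. Each line gives the 250 bases before an annotated start of the gene (RefSeq, GRCm38.p6), 5′ to 3′ on the gene's strand. Capitals mark the letters of 3 motifs wherever they occur on either strand. TATAAA is the sequence of a TATA box, counted here at any distance from the start, so a match need not be a working TATA box. The core bound by SOX factors is ACAAT. The motif of TEAD factors is GGAATG.
Aspn: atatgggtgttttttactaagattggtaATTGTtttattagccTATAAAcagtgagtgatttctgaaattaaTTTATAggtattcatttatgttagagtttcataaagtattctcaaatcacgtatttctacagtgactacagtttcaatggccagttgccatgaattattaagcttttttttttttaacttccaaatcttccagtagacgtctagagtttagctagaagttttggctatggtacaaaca
Ogn: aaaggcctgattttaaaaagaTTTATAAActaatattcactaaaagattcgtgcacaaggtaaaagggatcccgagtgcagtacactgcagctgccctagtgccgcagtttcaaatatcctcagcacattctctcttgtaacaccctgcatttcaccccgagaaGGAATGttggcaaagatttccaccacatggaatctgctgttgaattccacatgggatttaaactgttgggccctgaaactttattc
Postn: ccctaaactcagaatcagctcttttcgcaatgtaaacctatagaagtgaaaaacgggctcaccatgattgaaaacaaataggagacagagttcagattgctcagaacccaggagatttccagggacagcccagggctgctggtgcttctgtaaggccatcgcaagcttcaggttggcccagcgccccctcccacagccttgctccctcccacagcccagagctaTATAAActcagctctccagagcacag
The Aspn window is chr13:49544193-49544442, the Ogn window chr13:49607765-49608014 and the Postn window, that of the second of its 2 starts, chr3:54360857-54361106, all on the plus strand. Aspn and Ogn each held 2 matches to TATAAA, which in Ogn overlap on opposite strands, and Postn held 1. ACAAT occurred 1 time in Aspn and GGAATG 1 time in Ogn. The window of the first Postn start, not shown, held 0 matches to TATAAA and 1 to ACAAT. Among 32851 windows of this length, 12.4% held TATAAA, 27.7% ACAAT and 12.6% GGAATG, so these letters are common and a match is not a binding site. Windows of 5 of the 10 genes were at hand, the others being of Fbn1 and Tnc. In the order of genes on the assembly, Aspn lies between Ecm2 and Omd, with Ogn next to Omd on chromosome 13, and Dcn and Lum are neighbours on chromosome 10.

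The tissue labels were set against marker genes. Sox17 itself checks the genotype: on probe set 1421657_a_at it had log2 signals of 7.65 and 7.90 in Sox17+/- against 9.52 and 9.24 in wild type gallbladder of ICR, and of 8.03 and 7.91 in Sox17+/- against 9.29 and 9.04 in wild type gallbladder of B6 (limma adjusted p = 0.00803 over both strains). The mean over 10 hepatocyte genes was 13.50 and 13.13 in cystic duct, against 10.16 to 11.94 in the 8 gallbladders, and all 10 genes lay above every gallbladder in both cystic duct samples. The mean over 8 smooth muscle genes was 7.91 and 8.62 in cystic duct, against 9.59 to 10.04 in gallbladder, with 6 of the 8 genes below every gallbladder. The mean over 12 mesenchyme genes that encode no matrix protein was 8.48 and 9.02 in cystic duct, against 9.08 to 9.31 in gallbladder, with 5 of 12 genes below and 1 above every gallbladder. The mean over 6 erythroid genes was 9.82 and 8.47 in cystic duct, against 6.39 to 8.59 in gallbladder, with 2 of 6 genes above every gallbladder. The mean over 10 biliary epithelium genes overlapped, at 9.68 and 9.69 in cystic duct against 9.54 to 10.11 in gallbladder. Of these 10 genes 2 lay below and 1 above every gallbladder. The cystic duct samples also differed from each other: 25.7% of the 26443 probe sets tested were over 1 log2 apart between them, against 0.11% to 4.3% in the 4 gallbladder pairs. Before normalisation the second cystic duct sample had the narrowest spread of signals, an interquartile range of 2.75 log2 against 3.46 to 3.84 in all other samples. Values of each cystic duct sample are therefore given on their own.

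In cystic duct, Mfap5, Abi3bp, Aspn and Ogn had lower signals than in any gallbladder on every probe set. Eln, Tnc and Dcn did so on 1 of their 2 probe sets, and Lum and Postn did not. On the microfibril gene Mfap5, probe set 1418454_at gave 5.14 and 7.33 in cystic duct, against 9.42 and 9.55 in ICR wild type gallbladder. Probe set 1449082_at gave 5.32 and 6.39 in cystic duct, against 8.79 and 8.44 in ICR wild type gallbladder. Both cystic duct samples lay below all 8 gallbladders on both probe sets, and the first cystic duct sample was the lower one on each. The group means were 6.23 ± 1.55 and 9.48 ± 0.09 on 1418454_at (SD, n = 2 each), a difference of -3.25 log2 or 9.51-fold, which was 20.3-fold in the first cystic duct sample and 4.45-fold in the second. On 1449082_at the difference was -2.76. Eln, the elastic fibre protein itself, differed less. Probe set 1420855_at gave 8.34 and 8.94 in cystic duct, against 9.58 and 9.23 in ICR wild type gallbladder, a difference of -0.76. The higher cystic duct sample minus the lowest gallbladder, a B6 sample at 9.02, was -0.07. Probe set 1420854_at of Eln gave 6.54 and 7.91 in cystic duct, against 7.16 and 6.78 in ICR wild type gallbladder, so its cystic duct samples lay on either side of the gallbladders.

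**Figure D1:**
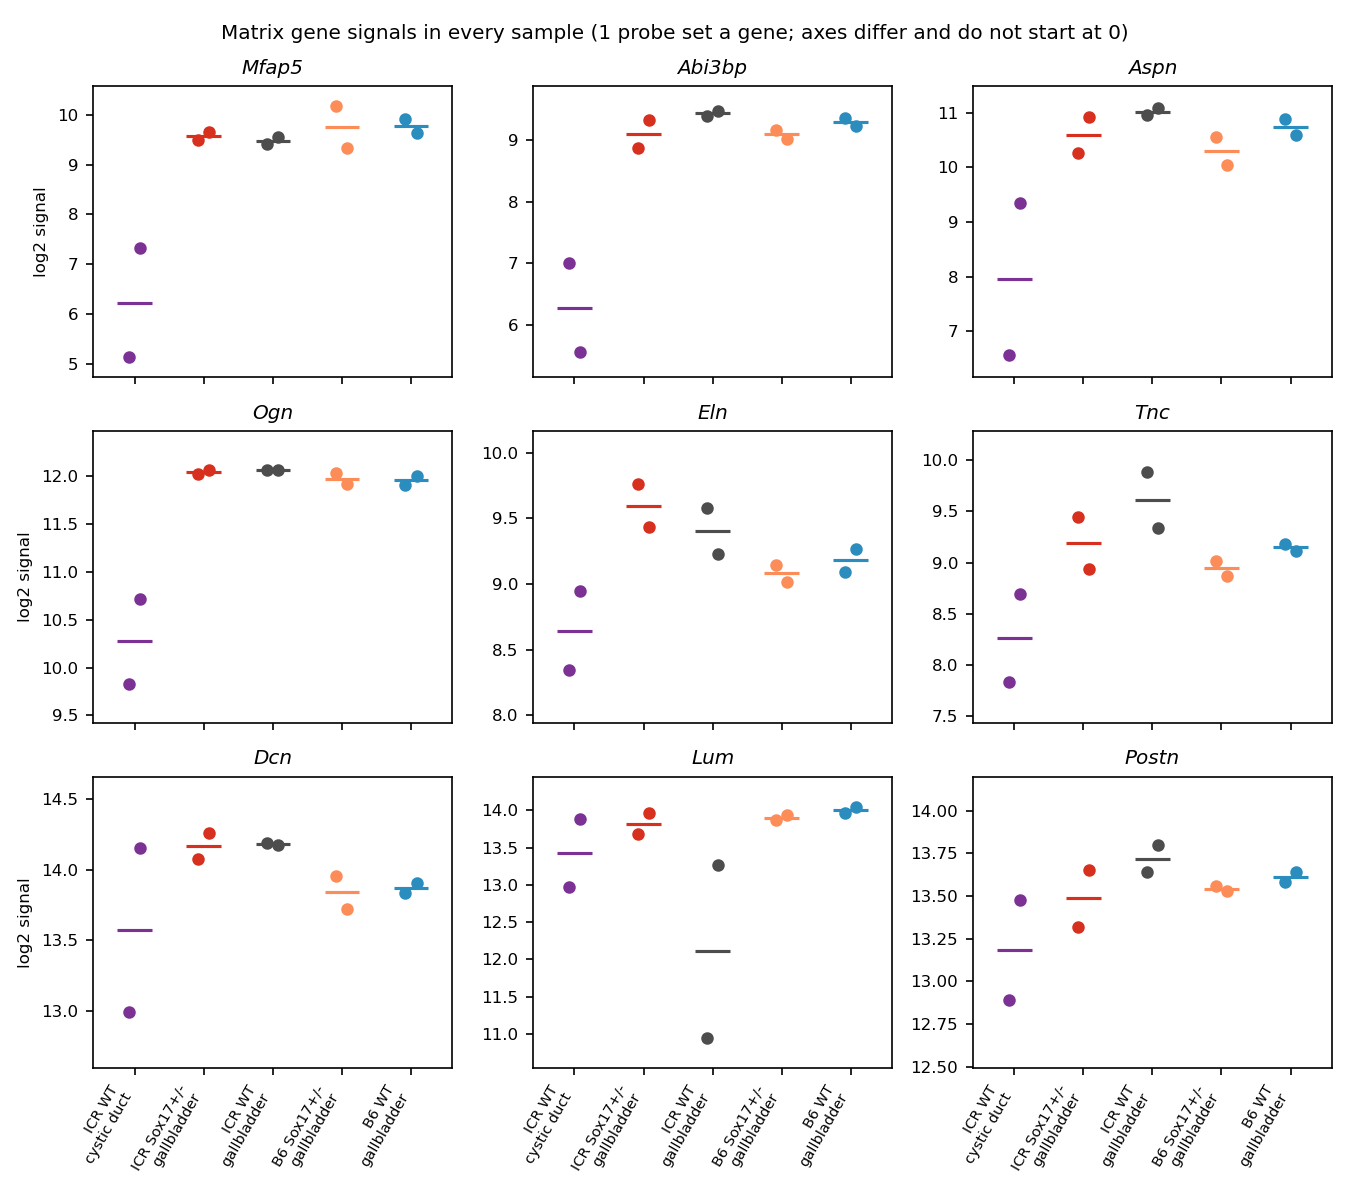
Log2 signal (vertical axis, quantile normalised) of 9 matrix genes in each sample, on the probe set with the highest mean of each gene; points are samples, lines are group means (n = 2), and the axes differ between panels and do not start at 0. In the panels of Mfap5, Abi3bp, Aspn and Ogn both cystic duct points lie below all 8 gallbladder points, while in the panel of Lum 1 ICR wild type gallbladder, at 10.95, lies below every other sample.

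Abi3bp gave 7.0 and 5.55 in cystic duct on 1427054_s_at, against 9.40 and 9.48 in ICR wild type gallbladder. On 1427053_at it gave 5.31 and 5.71 in cystic duct, against 7.87 and 8.14 in ICR wild type gallbladder. The differences were -3.16 and -2.50, and no gallbladder reached down to the cystic duct values on either probe set. Unlike Mfap5, Abi3bp was lower in the second cystic duct sample on 1427054_s_at, so the order of the pair was not the same for all genes. Its folds there were 5.41 in the first sample and 14.8 in the second.

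Among the small leucine-rich genes, Aspn and Ogn were lower in cystic duct on every probe set, while Dcn and Lum overlapped with gallbladder on the probe set with the highest mean. Aspn gave 6.56 and 9.35 in cystic duct on 1416652_at, against 10.95 and 11.09 in ICR wild type gallbladder. On 1448421_s_at it gave 6.17 and 7.59 in cystic duct, against 10.59 and 10.99 in ICR wild type gallbladder. The differences were -3.06 on 1416652_at and -3.91 on 1448421_s_at, and this 15.1-fold difference was the largest among the 16 probe sets. The cystic duct pair spread by 2.79 log2 on 1416652_at, where the folds were 22.0 in the first sample and 3.17 in the second. Ogn gave 9.83 and 10.72 in cystic duct on 1419663_at, against 12.06 in both ICR wild type gallbladders, and 9.03 and 9.71 in cystic duct on 1419662_at, against 11.36 and 11.49. Its differences were -1.79 and -2.06, and the other 6 gallbladders stayed between 11.91 and 12.07 on 1419663_at. Dcn on 1449368_at gave 12.99 and 14.15 in cystic duct, against 14.19 and 14.18 in ICR wild type gallbladder. The mean difference was -0.61, and it was -1.19 for the first cystic duct sample and -0.03 for the second. On 1441506_at Dcn gave 7.12 and 6.16 in cystic duct, against 7.95 and 7.76 in ICR wild type gallbladder, with both cystic duct samples below all gallbladders. Lum gave 12.97 and 13.89 in cystic duct, against 10.95 and 13.27 in ICR wild type gallbladder. The mean difference of 1.32 rests on the gallbladder at 10.95: without that sample the difference was 0.16, and cystic duct minus each of the other 3 gallbladder groups was -0.39 to -0.58.

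Of the matricellular pair, Tnc on 1416342_at gave 7.83 and 8.69 in cystic duct, against 9.88 and 9.34 in ICR wild type gallbladder, a difference of -1.35. Its other probe set 1456344_at gave 3.76 and 6.03 in cystic duct, against 4.53 and 4.80 in ICR wild type gallbladder, so the cystic duct samples stood at both ends of the range. Postn gave 12.89 and 13.48 in cystic duct, against 13.64 and 13.80 in ICR wild type gallbladder, a difference of -0.53. The second cystic duct sample lay above 1 of the 8 gallbladders, an ICR Sox17+/- sample at 13.32.

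**Figure D2:**
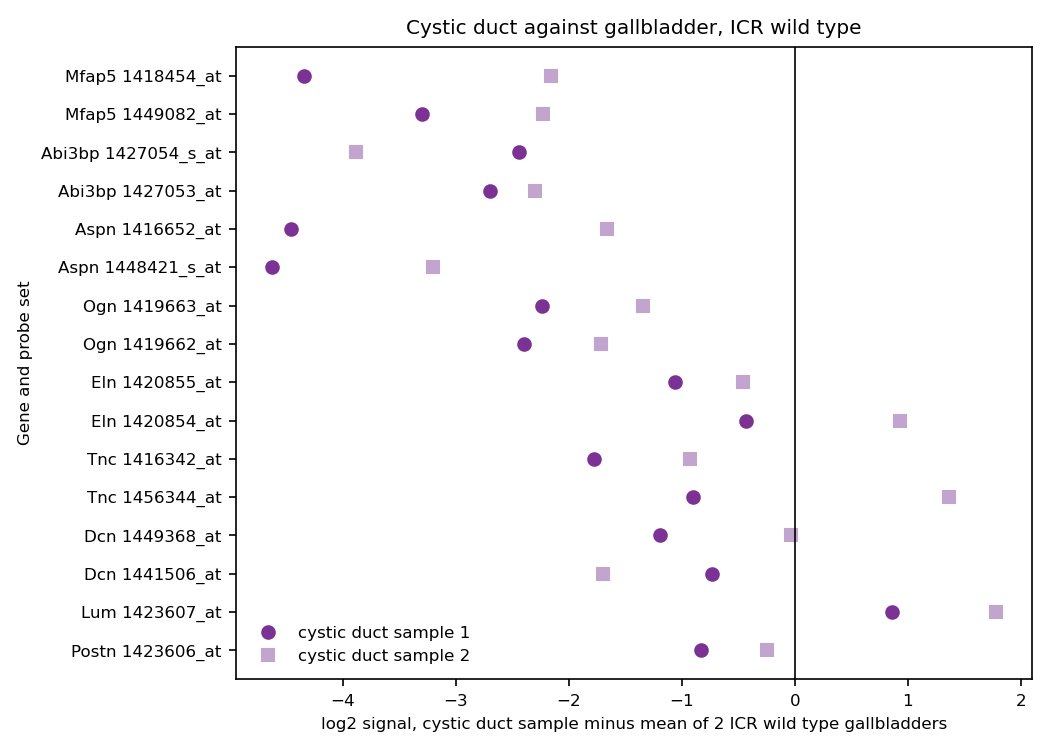
Difference in log2 signal (horizontal axis) between each cystic duct sample and the mean of the 2 ICR wild type gallbladders, for the 16 probe sets of the matrix genes (vertical axis). Circles (sample 1) and squares (sample 2) of Mfap5, Abi3bp, Aspn and Ogn all lie left of 0, from -1.34 to -4.62, and those of Eln 1420854_at and Tnc 1456344_at lie on opposite sides of it.

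Counted over probe sets, 13 of 16 had both cystic duct samples below both ICR wild type gallbladders, where 28.2% of all probe sets tested did, and 11 of 16 had both below all 8 gallbladders, where 14.9% did. Counted over genes, each by 1 probe set, these numbers were 8 of 9, where 27.6% of genes did, and 6 of 9, where 16.3% did. Because several of the genes were picked for this contrast, nothing is read from these shares. The median difference was -1.57 over the 16 probe sets and -0.06 over all. Smooth muscle markers were lower in cystic duct as well in 7 of 8 genes, with a list mean difference of -1.38. Mesenchyme markers were split, with 6 of 12 genes lower, a median of -0.27 and a list mean difference of -0.42. Hepatocyte genes were higher with a median of 3.48. The mesenchyme mean takes in Pdgfra, low at 7.55 in the first ICR wild type gallbladder against 9.80 to 10.34 in the others. The smooth muscle mean takes in Actg2, at 8.85 there against 10.79 to 11.52. Values relative to these means carry both signals. Taken relative to the mesenchyme mean, the differences were -2.83 for Mfap5, -2.74 for Abi3bp, -2.65 for Aspn, -1.37 for Ogn, -0.93 for Tnc, -0.34 for Eln, -0.19 for Dcn and -0.12 for Postn on the same probe set of each gene. Taken relative to the smooth muscle mean, they were -1.87 for Mfap5, -1.78 for Abi3bp, -1.68 for Aspn and -0.41 for Ogn, whereas Eln stood at 0.62, Tnc at 0.03, Dcn at 0.77 and Postn at 0.85. Lum stood at 1.74 relative to the mesenchyme mean and at 2.70 relative to the smooth muscle mean. Its difference takes in the low Lum signal of the first ICR wild type gallbladder. In whole tissue, fewer cells of a type and less RNA per cell cannot be told apart, and the part of cell makeup or of liver and blood RNA in these differences was not tested.

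Sox17+/- gallbladder was compared with wild type within each strain and over both, to ask whether the matrix genes of the wall differ between the genotypes. None of the 16 probe sets passed the threshold (limma adjusted p under 0.05) over both strains, where 0.125% of all probe sets did, and 4 of 16 had an unadjusted p under 0.05, where 9.66% did. These 4 were both probe sets of Abi3bp, 1 of Aspn and 1 of Tnc, each lower in Sox17+/-, a direction with that p in 6.03% of all. The median change was -0.10 over the 16 and -0.01 over all probe sets. With the replicate number as a block 0 of the 16 passed and 7 had an unadjusted p under 0.05 in limma, where 14.7% of all did. The ICR wild type gallbladders of this comparison are also those set against cystic duct, and the genes were picked with results of every group known, so neither strain is independent of that choice.

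Markers of other tissues also differed between samples of the genotypes, with no test made. The mean over 10 skeletal muscle genes was 7.56 and 5.49 in Sox17+/- against 4.91 and 4.99 in wild type gallbladder of B6, and 5.61 and 5.11 in Sox17+/- against 4.94 and 5.0 in wild type gallbladder of ICR. The embryonic myosin Myh3 reached 10.10 in the first B6 Sox17+/- sample. The hepatocyte mean was 11.94 and 11.33 in Sox17+/- against 10.31 and 10.16 in wild type gallbladder of ICR, and 11.56 and 11.59 in Sox17+/- against 11.72 and 11.15 in wild type gallbladder of B6. The mean over 6 erythroid genes was 7.81 and 7.22 in Sox17+/- against 7.25 and 6.39 in wild type gallbladder of ICR, and 7.84 and 8.59 in Sox17+/- against 7.41 and 7.55 in wild type gallbladder of B6. Without the first B6 Sox17+/- sample the change over both strains was -0.58 for Abi3bp on 1427053_at and -0.56 for Aspn on 1416652_at, and 0 of the 16 passed in limma. The part of liver, blood and skeletal muscle RNA in the genotype values was not tested.

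Abi3bp on 1427053_at had signals of 6.73 and 7.62 in Sox17+/- against 7.87 and 8.14 in wild type gallbladder of ICR. In B6 it had 7.42 and 7.29 in Sox17+/- against 7.72 and 7.52 in wild type gallbladder. Every Sox17+/- sample lay below both wild type samples of its strain. The change was -0.55 over both strains (SE 0.19, 95% interval -1.0 to -0.09), which did not pass (limma adjusted p = 0.444). On 1427054_s_at Abi3bp had 8.88 and 9.33 in Sox17+/- against 9.40 and 9.48 in wild type gallbladder of ICR, and 9.17 and 9.02 in Sox17+/- against 9.36 and 9.22 in wild type gallbladder of B6. The groups again did not overlap within a strain, and the change of -0.26 did not pass (SE 0.11, limma adjusted p = 0.517). Aspn on 1416652_at had 10.26 and 10.92 in Sox17+/- against 10.95 and 11.09 in wild type gallbladder of ICR, and 10.56 and 10.04 in Sox17+/- against 10.88 and 10.60 in wild type gallbladder of B6. It was the third probe set with no overlap in either strain, at -0.43 in ICR and -0.44 in B6, and over both strains it did not pass (-0.43, SE 0.18, limma adjusted p = 0.498). The second Aspn probe set stood at -0.39 over both strains (SE 0.18, limma adjusted p = 0.54), with overlap in B6. Across all probe sets, 6.08% had both Sox17+/- samples below both wild type samples in each strain, against 3 of these 16, and 3.87% had them above, against 0 of these 16.

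Tnc on 1456344_at had 4.18 and 4.10 in Sox17+/- against 4.53 and 4.80 in wild type gallbladder of ICR, and 4.72 and 4.97 in Sox17+/- against 4.94 and 5.0 in wild type gallbladder of B6. The groups did not overlap in ICR and overlapped in B6, and the change of -0.33 over both strains did not pass (SE 0.10, limma adjusted p = 0.4). The mean signal of this probe set over all samples was 4.70, near the filter threshold of 4.47. On 1416342_at Tnc had 9.45 and 8.93 in Sox17+/- against 9.88 and 9.34 in wild type gallbladder of ICR, and the change over both strains was -0.31 (SE 0.16, limma adjusted p = 0.566). Postn, its fellow matricellular gene, stood at -0.15 (SE 0.08), with 13.32 and 13.65 in Sox17+/- against 13.64 and 13.80 in wild type gallbladder of ICR.

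The fibre genes and 2 of the proteoglycan genes moved little between the genotypes. Mfap5 on 1418454_at had 9.49 and 9.66 in Sox17+/- against 9.42 and 9.55 in wild type gallbladder of ICR, and 10.18 and 9.34 in Sox17+/- against 9.91 and 9.63 in wild type gallbladder of B6, where the Sox17+/- pair spanned the wild type pair. Its change over both strains was 0.04 with a 95% interval of -0.38 to 0.46, and on 1449082_at it was 0.01 (95% interval -0.43 to 0.45). Eln stood at 0.05 (95% interval -0.23 to 0.32) on 1420855_at and at 0.06 (95% interval -0.275 to 0.39) on 1420854_at. Ogn stood at -0.0009 (95% interval -0.13 to 0.13) on 1419663_at and at -0.12 (95% interval -0.43 to 0.19) on 1419662_at. Dcn on 1449368_at stood at -0.02 (95% interval -0.19 to 0.14) and on 1441506_at at -0.08 (95% interval -0.33 to 0.18). These intervals give the range of changes compatible with the values and are not limits of detection. With 2 samples a group larger changes could also fail to pass, as -0.55 did for Abi3bp on 1427053_at.

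Lum had 13.68 and 13.96 in Sox17+/- against 10.95 and 13.27 in wild type gallbladder of ICR, and 13.86 and 13.94 in Sox17+/- against 13.96 and 14.05 in wild type gallbladder of B6. The ICR change of 1.71 did not pass (SE 0.62, limma adjusted p = 0.364). It turned on the first ICR wild type sample: without that sample the change was 0.55 (limma adjusted p = 0.206), and with it as the only ICR wild type sample, 2.87 (limma adjusted p = 2.04e-05). Over both strains Lum likewise passed on leaving out the second ICR wild type sample (1.38, limma adjusted p = 0.000139), the one fit in which any of the 16 passed. In the first ICR wild type sample 757 of 26443 probe sets, or 2.86%, lay over 1 log2 below all 7 other gallbladders. Lum was the only one of the 16 matrix probe sets among them, beside 8 of the 104 other matrix genes tested, such as the TGF-beta receptor Tgfbr1 at 6.35 against 10.41 to 11.03. The mesenchyme marker Pdgfra was low there too, at 7.55 against 9.80 to 10.34. In B6 Lum changed by -0.10 (95% interval -1.57 to 1.36), and B6 minus ICR in this change was -1.81 and did not pass (SE 0.88, limma adjusted p = 0.82).

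**Figure D3:**
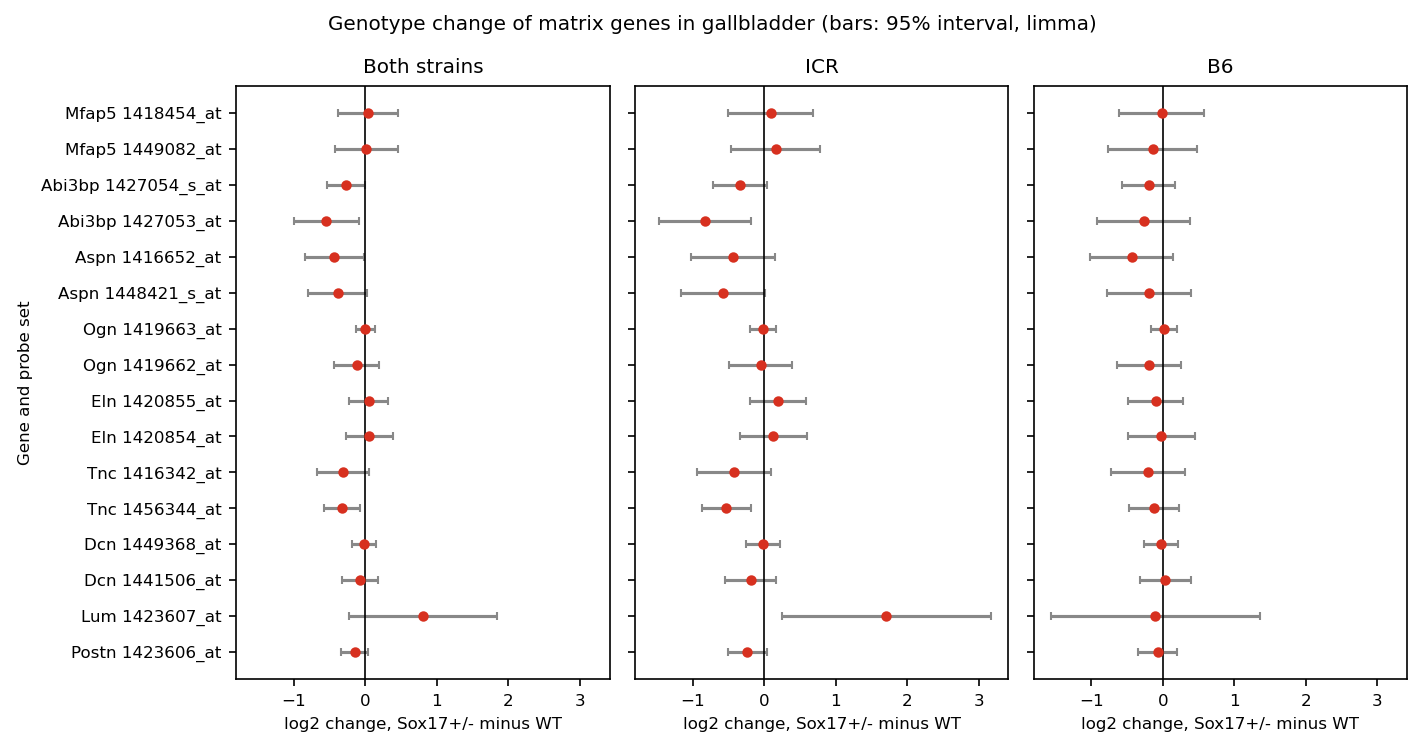
Change in log2 signal, Sox17+/- minus wild type gallbladder (horizontal axis), of the 16 matrix probe sets over both strains together and within ICR or B6; points are limma estimates and bars 95% intervals, with 2 samples a group. Both probe sets of Abi3bp, Aspn and Tnc lie left of 0 in every panel, as do Postn, Ogn 1419662_at and Dcn 1449368_at. Lum has the widest bars, with 1.71 in ICR and -0.10 in B6.

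By strain, 0 of the 16 passed in ICR, where 0.0454% of probe sets did, and 3 had an unadjusted p under 0.05 in limma, where 12.1% did (8 and 18.5% with the replicate block). In B6, 0 of 16 passed, where 0.0113% did, and 0 had an unadjusted p under 0.05 in limma, where 4.94% did (2 and 8.32% with the replicate block). Changes lay below 0 for 11 of 16 in ICR, where 54.9% of probe sets did, and for 14 of 16 in B6, where 51.4% did, with medians of -0.12 and -0.11. The sizes in B6 were small beside the errors: the lowest, that of Aspn on 1416652_at, was -0.44 with a 95% interval of -1.02 to 0.15. Abi3bp on 1427053_at stood at -0.83 in ICR (95% interval -1.47 to -0.18) and -0.27 in B6 (95% interval -0.91 to 0.38), and B6 minus ICR in this change was 0.56 and did not pass (SE 0.39, limma adjusted p = 0.823). For the difference between the strains 0 of 16 matrix probe sets and 0% of all probe sets passed in limma, and 5.77% of all had an unadjusted p under 0.05, against 0 of the 16.

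B6 gallbladder was also set against ICR gallbladder with both genotypes in each strain. Of the 16 probe sets, 3 passed in limma, where 15.2% of all probe sets did: Ogn and Dcn on 1 probe set each were lower in B6, as 8.62% of all were, and Tnc on 1 was higher, as 6.59% were. Ogn on 1419662_at had 10.90, 10.35, 10.78 and 10.86 in B6, against 11.54, 11.22, 11.36 and 11.49 in ICR, with no overlap, and a difference of -0.68 (SE 0.13, limma adjusted p = 0.0167). The other Ogn probe set, 1419663_at, gave -0.09 (SE 0.06, limma adjusted p = 0.309), so the 2 probe sets of the gene disagreed in size. Dcn on 1449368_at had 13.96, 13.72, 13.83 and 13.90 in B6, against 14.07, 14.26, 14.19 and 14.18 in ICR, again with no overlap, and a difference of -0.32 (SE 0.07, limma adjusted p = 0.0241). On 1441506_at Dcn stood at 0.15 (SE 0.11), in the opposite direction. All 4 B6 samples lay below all 4 ICR samples for these 2 of 16 probe sets, against 10.6% of all. Tnc on 1456344_at had 4.72, 4.97, 4.94 and 5.0 in B6, against 4.18, 4.10, 4.53 and 4.80 in ICR, and a difference of 0.51 (SE 0.10, limma adjusted p = 0.02). This probe set was dim, with a mean of 4.70 over all samples, near the filter threshold of 4.47. The brighter 1416342_at of Tnc, with a mean of 9.03, gave -0.36 (SE 0.16, limma adjusted p = 0.17), in the opposite direction.

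Each of the 3 strain calls was lost in some fits. With all 10 samples in the fit the adjusted p in limma was 0.0797 for Ogn, 0.552 for Dcn and 0.654 for Tnc. Each was also lost on leaving out either B6 wild type sample, with a limma adjusted p of 0.0646 to 0.104 over the 3. Ogn and Tnc were lost without the first ICR Sox17+/- sample (limma adjusted p of 0.0554 and 0.0525), and Dcn and Tnc without the second B6 Sox17+/- sample (limma adjusted p of 0.0776 and 0.0727). With signals centred on each sample's median, Ogn stood at -0.55 and Dcn at -0.16, and neither passed. In the values as deposited Tnc stood at 0.31 and did not pass (limma adjusted p = 0.31). The mean of both Dcn probe sets stood at -0.0881 and did not pass (limma adjusted p = 0.396). Eln on 1420855_at stood at -0.37 (SE 0.12, limma adjusted p = 0.0747) with 9.14, 9.02, 9.10 and 9.27 in B6, against 9.76, 9.43, 9.58 and 9.23 in ICR. With the replicate number as a block 6 of the 16 passed in limma, where 21.3% of all did. The 3 that the block added were Eln 1420855_at (limma adjusted p = 0.0248), Tnc 1416342_at (limma adjusted p = 0.0147) and Aspn 1448421_s_at at -0.31 (limma adjusted p = 0.0372), each lower in B6. Without a block Eln passed on leaving out the second ICR wild type or the second ICR Sox17+/- sample (limma adjusted p of 0.0253 and 0.0466), as did Tnc 1416342_at without that wild type sample (limma adjusted p = 0.0414). Lum stood at 0.99 (SE 0.44, limma adjusted p = 0.176), and at 0.41 without the first ICR wild type sample, where it passed (limma adjusted p = 0.0168), and at 1.57 without the second, where it also passed (limma adjusted p = 5.27e-05). No label gives a batch, so strain and any batch cannot be told apart. The Gapdh control signal at the 3′ end minus that at the 5′ end, a gauge of RNA integrity, also separated the strains. It was 0.43 to 0.93 log2 in the ICR gallbladders and 0.0014 to 0.30 in the B6 gallbladders. The same measure on the Actb control overlapped, at 0.56 to 1.40 in ICR and 0.92 to 1.20 in B6. The part of RNA integrity in the strain differences was not tested.

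Other genes of the matrix were read to place these in their pathway: 116 genes in 8 lists, of which 104 were tested on 1 probe set each. In Sox17+/- against wild type gallbladder over both strains 0 of the 104 passed in limma, where 0.197% of genes did, and 16 had an unadjusted p under 0.05, where 9.97% of genes did. The lowest p among them was that of Thbs4, a thrombospondin of tendon and muscle matrix, at -0.52 (SE 0.09, limma adjusted p = 0.102), followed by Egflam, an adhesive glycoprotein of basal laminae, at -0.41 (SE 0.08, limma adjusted p = 0.152). Fbln5, which guides elastic fibre assembly, stood at 0.33 (SE 0.11) and Serpinh1, the collagen chaperone, at -0.26 (SE 0.07), and neither passed.

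In cystic duct against ICR wild type gallbladder, 25 of the 104 other matrix genes were lower and 4 higher in limma, where 7.2% of genes were lower and 4.86% higher. These calls rest on the spread of all 10 samples: with array weights, or with the 4 ICR wild type samples alone, 0 passed in limma. Leaving out single samples gave 10 calls without the first ICR wild type gallbladder and 62 without the second cystic duct sample, so the genes below are given by their sizes. Of 17 elastic fibre genes 3 were lower, among them the crosslinking enzymes Lox at -1.47 (SE 0.26) and Loxl1 at -1.12 (SE 0.20), which join elastin and collagen chains, and the fibulin Fbln2 at -1.06 (SE 0.28). Lox had 9.89 and 10.85 in cystic duct, against 11.81 and 11.86 in ICR wild type gallbladder. Of 7 further small leucine-rich genes 3 were lower, the collagen-binding Bgn at -0.95, Fmod at -0.89 and Prelp at -0.81, while Omd, which lies between Aspn and Ogn on the chromosome, stood at -0.41 (SE 0.32) and did not pass. Ecm2, which lies next to Aspn, and Kera and Epyc, which follow Lum on chromosome 10, were below the filter. Of 15 matricellular genes 3 were lower, Tgfbi at -1.66, Thbs1 at -1.20 and Thbs3 at -1.01.

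Of 13 basement membrane genes 3 were lower in cystic duct, the laminin chains Lamb1 at -1.04 and Lamb2 at -0.98 and the nidogen Nid2 at -0.77. Of 18 processing genes 6 were lower, with Adamtsl1 at -2.11 (SE 0.24) and Serpinh1 at -1.14 (SE 0.12), and 1 higher, the procollagen C-proteinase enhancer Pcolce2 at 2.25 (SE 0.24). Of 11 TGF-beta genes 3 were lower, the ligand Tgfb2 at -1.08 and the receptors Tgfbr2 at -1.05 and Tgfbr3 at -0.73. Of 12 matrix receptors 4 were lower, with the hyaluronan receptor Cd44 at -1.36 and the integrin chain Itgav at -0.98, and 1 was higher, the integrin chain Itga4 at 1.28. Of 11 hyaluronan and adhesive glycoprotein genes 2 were higher, the matrilin Matn4 at 0.91 (SE 0.22) and Vtn at 3.81 (SE 0.48). Vitronectin (Vtn) is a plasma protein made by liver. The 10 hepatocyte genes were higher in the same cystic duct samples, and their part in the Vtn signal was not tested. In the strain comparison 6 of the 104 genes were higher and 10 lower in B6 in limma, where 5.96% and 4.72% of genes were, with Prelp at -1.11 (SE 0.08) and Fbln2 at -0.94 (SE 0.16).

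**Figure D4:**
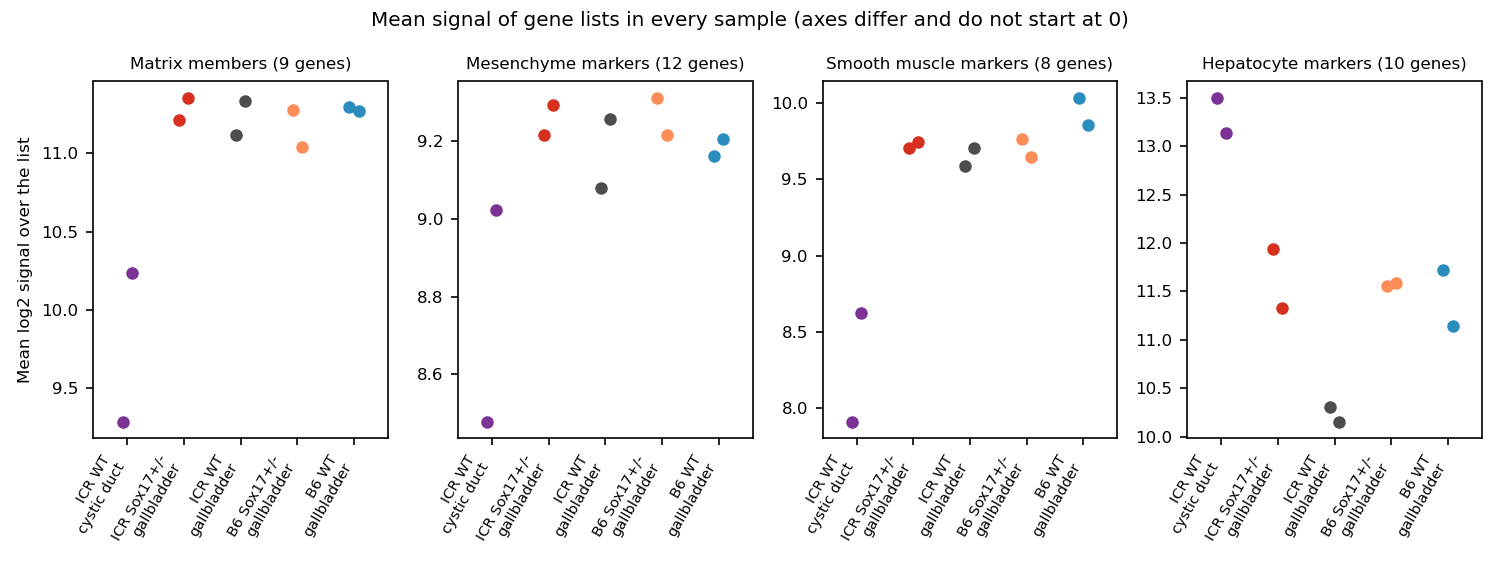
Mean log2 signal (vertical axis) over the 9 measured matrix genes and over 12 mesenchyme, 8 smooth muscle and 10 hepatocyte marker genes in each sample; every point is a sample, and the axes differ and do not start at 0. Cystic duct samples are lowest in the first 3 panels and highest in that of hepatocyte genes, and the first cystic duct sample has the lower matrix mean, 9.28 against 10.23 in the second.

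The mean over the 9 matrix genes was 9.28 and 10.23 in cystic duct, against 11.04 to 11.36 in the 8 gallbladders. Among 7671 genes with a range of at least 1 log2 over the 10 samples, those whose signal followed this mean most closely were the homeobox gene Hoxd8 (Pearson r = 0.99), the crosslinking enzyme Lox (0.99), the zinc finger factor Klf6 (0.99), the serpin Serpinb6a (0.98) and Sfrp2, a secreted inhibitor of Wnt signalling (0.98). The 10 points share the contrast of cystic duct with gallbladder and the spread of the cystic duct pair, and Lox was lower in cystic duct by the same fit described above. Over the 8 gallbladders alone and 2176 genes, the closest were Acyp2 (r = 0.91), Slc23a2 (0.84), Gm19710 (0.82), Ccdc89 (0.80) and Lipo3 (0.77), none of which is in the list over all 10 samples. Over these 8 samples the matrix mean ran only from 11.04 to 11.36 and takes in the Lum signal of 10.95.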

How the data were processed

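The authors' deposited table gives 1 value per probe set and sample, taken as a log2 signal from its range. The cRNA was biotinylated, starting from 10 ug total RNA, per the labels' protocols. Which background correction and normalisation came before deposit is not given in the sources used here. Sample groups came from the sample titles and strain fields. Where a label's tag and its value disagree (stage given as genotype, and the reverse), the value was used.

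Of 45101 probe sets, 64 controls were left out, 34945 had 1 gene in the platform table, 932 several and 9160 none; only the single-gene ones entered, 34741 of which the GRCm38.p6 gene table lists by Entrez identifier. Sample medians ran from 5.51 to 6.07 with interquartile ranges of 2.75 to 3.84. The range of 2.75 was that of the second cystic duct sample, and all other samples had 3.46 to 3.84. As medians and ranges differed by over 0.2 log2, samples were quantile normalised. Probe sets below the 30th percentile of mean signal were dropped, which left 26443 of 14738 genes. A gene's level is that of its probe set with the highest mean.

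Group means were fitted with limma 3.58.1 (R 4.3.3; lmFit, eBayes with a trend), with Benjamini-Hochberg adjustment over all 26443 probe sets at 0.05. Genotype and strain were fitted on the 8 gallbladders (7.15 total degrees of freedom), cystic duct on all 10 samples (8.07). The genes, lists and this choice of samples were made with earlier results of these data known. Named genes are all matrix genes, the 3 with the lowest p per list and comparison or fewer, the 5 genes closest to their mean, and Sox17; Itga4, Omd, Kera, Epyc, Ecm2, Pdgfra, Tgfbr1, Myh3 and the strain examples were named after their values were seen. Replicate numbers are shared by the genotypes of a strain. Same-numbered samples deviated together from their group means (r = 0.39 in ICR and 0.29 in B6; 0.07 for cystic duct and gallbladder); no label says what a number marks. Steps were tested on simulated data. Figures used Python 3.11.15, pandas 2.3.3 and matplotlib 3.10.9.

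Alternatives were the values as deposited, median centring, no filter or the 50th percentile, 1 probe set a gene or the mean of probe sets, no trend, array weights, other samples in the fit, the replicate number as a block, and each sample left out, which assumes that the sample left in its group varies like the others. Levels relative to marker means, and the alternatives for other matrix genes, were added after seeing the data.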

Additional observations from a re-analysis of the deposited data

How the results depend on the processing

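The number of probe sets that passed limma depended on the setting, and the cause was not tested. For Sox17+/- against wild type over both strains it was 33, and 70 in the values as deposited, 55 with no filter, 78 with 1 probe set a gene, 70 with the mean of probe sets and 2 with all 10 samples in the fit. In ICR it was 12, and 38 as deposited, 5 with median centring, 7 with the 50th percentile filter, 21 with 1 probe set a gene, 2 with array weights and 1 with all 10 samples in the fit. In B6 it was 3, and 5 with 1 probe set a gene, 42 with array weights and 1 with all 10 samples in the fit. For B6 against ICR it was 4022, and 1316 with 1 probe set a gene, 1998 with the mean of probe sets and 1434 with all 10 samples. For cystic duct against gallbladder it was 2659, and 1626 with the mean of probe sets and 0 with array weights or the 4 ICR wild type samples alone. Of the other matrix genes, 0 passed for genotype and 1 with the mean of probe sets. For cystic duct 29 passed, and 50 as deposited and 0 with array weights or the 4 ICR wild type samples alone. Leaving out single samples gave 3 to 1058 calls over both strains, 1 to 1185 in ICR, 0 to 10 in B6, 0 to 878 for the difference between them, 1598 to 5477 for B6 against ICR, 706 to 12878 for cystic duct, and 0 to 11 and 10 to 62 of the other matrix genes for genotype and cystic duct. The highest of these for genotype came without the second ICR wild type sample (for B6, without the second B6 Sox17+/- sample), and 12878 without the first cystic duct sample.

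Scaling moved the median of all probe sets from -0.06 to -0.27 as deposited and -0.16 centred for cystic duct, and from -0.03 to -0.18 as deposited in ICR. Calls split into 1742 higher and 2280 lower in B6 against ICR, 605 and 2355 as deposited and 2612 and 1921 centred. For cystic duct they split into 981 higher and 1678 lower, 332 and 2241 as deposited and 478 and 1427 centred.

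With the replicate number as a block 23 probe sets passed over both strains, 1 in ICR, 1 in B6, 5641 for B6 against ICR and 1978 for cystic duct. Beside the 3 calls it added for B6 against ICR, the replicate block changed no call of the 16 matrix probe sets for genotype or strain.

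Of 145 values of matrix probe sets under processing alternatives, 140 kept direction and call in both strains together and in ICR, 139 in B6 and 128 for B6 against ICR. Only the values as deposited, median centring and the mean of probe sets could change a direction. The other settings leave the differences between group means as they were, so for them only the call could change. For cystic duct 141 kept direction and moved by less than the SD between replicates. Most of the settings could not move these differences either, so the count does not measure how stable they are. Values relative to marker means were not among the 145. As deposited, over both strains Mfap5 stood at -0.046 and -0.067 and Eln at -0.033 and -0.0204, in ICR Mfap5 1418454_at at -0.046 and Eln 1420854_at at -0.008, in B6 Ogn 1419663_at at -0.036 and Dcn 1441506_at at -0.0006, and in cystic duct Eln 1420854_at at -0.0598. Centred on medians, Dcn 1449368_at stood at 0.032 over both strains and 0.14 in ICR, Ogn at 0.044 and 0.035 in ICR and 1419663_at at -0.073 in B6, and Dcn 1441506_at at -0.038 in B6. For B6 against ICR, centring gave 0.039 and 0.0014 for Abi3bp, 0.038 for Ogn 1419663_at and 0.16 for Postn. With the mean of probe sets, B6 gave -0.0898 for Ogn and 0.0036 for Dcn, and B6 against ICR 0.075 for Tnc. Relative to smooth muscle markers, cystic duct minus gallbladder was 0.62 for Eln 1420855_at, 0.029 for Tnc 1416342_at, 0.77 and 0.16 for Dcn and 0.85 for Postn.

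Leaving out single samples for genotype over both strains gave Mfap5 1418454_at from -0.17 to 0.25, Mfap5 1449082_at from -0.15 to 0.18, Ogn 1419663_at from -0.0298 to 0.028, Ogn 1419662_at from -0.26 to 0.016, Eln 1420855_at from -0.041 to 0.13, Eln 1420854_at from -0.047 to 0.16 and Dcn 1449368_at from -0.082 to 0.036. In ICR it gave Mfap5 1449082_at from -0.022 to 0.35, Ogn 1419663_at from -0.037 to 0.0049, Ogn 1419662_at from -0.21 to 0.11, Eln 1420854_at from -0.074 to 0.34 and Dcn 1449368_at from -0.11 to 0.074. In B6 it gave Mfap5 1418454_at from -0.43 to 0.40, Mfap5 1449082_at from -0.47 to 0.19, Aspn 1448421_s_at from -0.41 to 0.019, Ogn 1419663_at from -0.043 to 0.072, Ogn 1419662_at from -0.47 to 0.082, Eln 1420854_at from -0.15 to 0.11, Tnc 1456344_at from -0.25 to 0.0023, Dcn 1449368_at from -0.15 to 0.0905 and Dcn 1441506_at from -0.10 to 0.17. For B6 against ICR it gave Mfap5 1449082_at from -0.013 to 0.31, Abi3bp 1427054_s_at from -0.19 to 0.032, Abi3bp 1427053_at from -0.32 to 0.12 and Postn 1423606_at from -0.11 to 0.059. For cystic duct it gave Eln 1420854_at from -0.44 to 0.93 and Tnc 1456344_at from -0.90 to 1.37. None of these genotype or strain values passed in limma, and those for cystic duct were not tested. With 2 arrays a group, low signals such as those of Tnc 1456344_at carry no detection call here, so how near they lie to background was not tested.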
